A study of Mus musculus with 2 samples.

Results

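Id2, Batf3, Zbtb46, Zeb2, Spib, Tcf4, Bcl11a, Nfil3 and Klf4 encode transcriptional regulators that are known for their part in the formation of dendritic cell (DC) lineages. They were taken by gene symbol, 9 genes of the 31053 in the count matrices, and all 9 had UMIs (unique molecular identifiers, each counting 1 messenger RNA molecule). The cells were sorted from digested lungs of female C57BL/6J mice, 8 mice per treatment pooled into 1 sample. Control mice had received Alum, an aluminium adjuvant, without ovalbumin (OVA) and saline in the nose. Asthma mice had been sensitized to OVA in Alum and challenged with intranasal OVA, and tolerance mice had inhaled OVA before that same protocol. The sort took DCs as MHC-II high, CD11c high cells negative for MerTK, CD64 and Ly6C, as well as alveolar macrophages, and the cells of each pool carried 1 hashtag antibody before all pools were mixed and loaded on 2 lanes of droplet-based 3′ RNA sequencing. The lanes are technical, each treatment is 1 pool, and the pool was therefore the unit of replication between cell classes, while treatments could be described but not tested.

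Conventional DCs fall into a cDC1 lineage, which cross-presents antigen to CD8 T cells, and a cDC2 lineage, which primes CD4 T cells. Both come from a common bone marrow progenitor that also gives plasmacytoid DCs. ID2 blocks the E protein TCF4, ZEB2 represses Id2, and NFIL3 acts upstream in cDC1 formation, where BATF3 then keeps Irf8 active. TCF4, BCL11A and SPI-B favour the plasmacytoid and B cell side, KLF4 is needed for a part of the cDC2, and ZBTB46 marks the conventional DC lineage against monocytes and macrophages.

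Cells were placed in classes by detected marker genes that hold none of the 9 factors, so that factor counts did not enter the gates. Of 9856 cells that passed the quality limits, 8048 (81.7%) fell in a gate and 1808 in none. The gates gave 221 cDC1 (Xcr1, Clec9a, Cd207 and other markers), 628 cDC2 (Cd209a, Mgl2, Clec10a and others), 302 mature DCs (Ccr7, Fscn1, Ccl22 and others), 4169 alveolar macrophages, 799 interstitial macrophages, 330 nonclassical monocytes and 546 B cells, all outside a cycling gate that held another 63 cDC1 and 114 cDC2. The summed cDC1 markers stood at 3066, 3022 and 3104 CPM (UMIs of the gene or list per 1000000 gene UMIs) in the cDC1 of the control, asthma and tolerance pools and at 433, 428 and 318 CPM in the cDC2. A clustering of all cells gave the same name to 96.8% of the cDC1, 89.9% of the cDC2, 94.4% of the mature DCs and 81.2% of the interstitial macrophages. Of the 742 cDC2 with cycling cells included, 136 lay within 0.05 of a limit of the gate score. Only 6 cells met the plasmacytoid DC markers and none of these lay in a cluster of that name, so plasmacytoid DCs were not analysed here. B cells, T cells and neutrophils were present in spite of the sort.

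The 6 combinations of pool and lane held 7897139 to 11459855 gene UMIs, and 0 barcodes were shared between pools or lanes. Levels are given as CPM of all gene UMIs of a class in a pool, and mean values are over the 3 pools (± SD, n = 3). The SD holds differences between pools, in which treatment cannot be told apart from other differences, and does not show the spread between single animals. Median UMIs per cell were 6874 in cDC1, 6869.5 in cDC2 and 5501.5 in mature DCs, against 2272 in nonclassical monocytes and 1857.5 in B cells. Of 237 factor levels with at least 20 UMIs in a pool, the 95% Poisson intervals of the 2 lanes did not meet in 26 (10.97%), and 14 of these were Id2. Counting error alone therefore understates the error of Id2, and all Poisson intervals here cover counting error only.

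Id2, the inhibitor of E proteins, was higher in cDC1 and mature DCs than in any other of the 10 classes compared. In cDC1 it stood at 1018, 976 and 1143 CPM in the control, asthma and tolerance pools, and in mature DCs at 2350, 1242 and 1265 CPM. The same pools gave 414, 155 and 134 CPM in cDC2, so no cDC2 pool reached any cDC1 pool. The mean over pools was highest in mature DCs (1619 ± 633 CPM) and cDC1 (1046 ± 87.2 CPM), whose ranges did not overlap, and then fell to 340 ± 88.8 CPM in T cells, 299 ± 44.1 in nonclassical monocytes, 235 ± 156 in cDC2, 211 ± 34.5 in alveolar and 200 ± 29.6 CPM in interstitial macrophages. Neighbours among these last 5 classes had overlapping ranges. B cells (70.9 ± 47.1 CPM) and neutrophils (50.5 ± 26.3 CPM) were lowest. Natural killer cells were not among the 10 classes, since only the asthma pool held at least 10 of them (13 cells). Their Id2 stood at 1388 and 1868 CPM in the 2 lanes (18 UMIs each), above every cDC1 pool. Id2 lies on chromosome 12 (GRCm38, 25093799 to 25097140, minus strand) and no other gene of the GENCODE M21 annotation overlaps it.

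Zeb2, a zinc finger repressor that binds E-box sequences and is a known repressor of Id2, had its lowest mean in cDC1. In cDC1 only 10, 5 and 1 UMIs were found in the 3 pools (23.4, 6.86 and 2.23 CPM), against 282, 171 and 192 CPM in cDC2. Mature DCs lay between these classes at 46.5, 103 and 98.3 CPM. Interstitial macrophages (662 ± 88.5 CPM) and nonclassical monocytes (653 ± 103 CPM) were highest with overlapping ranges, followed by alveolar macrophages (402 ± 17.8 CPM). In the order of all 10 classes, cDC1 came last at 10.8 ± 11.1 CPM, next to T cells at 29.7 ± 7.36 CPM, whose range it overlapped. The gene spans 133764 bases of chromosome 2 (44983632 to 45117395, minus strand). Zeb2os and 3 other annotated genes overlap it on the opposite strand, and Mir5129 on its own.

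RefSeq promoter windows of 250 bases before to 50 after a transcription start (GRCm38.p6) were available for 8 of the 9 factors. Those of Id2, Zeb2 and Zbtb46 are printed because Id2 and Zeb2 differed in opposite directions between cDC1 and cDC2 and Zbtb46 had its highest means in the DC classes. Of the Zeb2 windows, only the one that held TGANTCA is printed. Each printed window lies inside the annotated span of its gene. The 5′ ends of these spans are at 25097140 (Id2), 45117395 (Zeb2) and 181459426 (Zbtb46), so the windows do not show the outermost annotated starts. Capitals mark the E-box CANNTG, which E proteins and ZEB2 can bind, and the AP-1 sequence TGANTCA, which BATF3 dimers can bind, on either strand.
Id2, chr12:25096043-25096342, minus strand: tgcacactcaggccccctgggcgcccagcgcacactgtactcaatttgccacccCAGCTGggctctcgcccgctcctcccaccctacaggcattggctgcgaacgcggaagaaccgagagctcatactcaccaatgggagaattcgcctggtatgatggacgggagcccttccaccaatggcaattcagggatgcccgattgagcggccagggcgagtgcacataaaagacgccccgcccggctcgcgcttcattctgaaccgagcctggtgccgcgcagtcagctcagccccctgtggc
Zeb2, chr2:45110228-45110527, minus strand: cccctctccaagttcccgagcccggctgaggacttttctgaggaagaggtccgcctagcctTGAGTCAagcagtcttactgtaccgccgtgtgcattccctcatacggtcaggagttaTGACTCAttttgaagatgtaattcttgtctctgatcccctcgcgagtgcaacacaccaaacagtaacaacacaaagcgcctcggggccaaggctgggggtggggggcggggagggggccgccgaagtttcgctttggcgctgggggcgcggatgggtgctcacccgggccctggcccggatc
Zbtb46, chr2:181424339-181424638, minus strand: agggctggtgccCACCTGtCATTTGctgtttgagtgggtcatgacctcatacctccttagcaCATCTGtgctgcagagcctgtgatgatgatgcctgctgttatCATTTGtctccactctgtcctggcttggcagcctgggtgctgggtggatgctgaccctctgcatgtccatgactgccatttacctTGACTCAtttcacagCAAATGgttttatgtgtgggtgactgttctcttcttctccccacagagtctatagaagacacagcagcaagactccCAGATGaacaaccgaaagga

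The Id2 window held 1 E-box, the Zbtb46 window 6, and this Zeb2 window none, as did the other 3 Zeb2 windows. Of all 32851 windows of this length outside chromosome 18, 72.3% held at least 1 E-box, with a median of 1. The form CACCTG, which is a special case of CANNTG and the core that ZEB proteins prefer, had 1 match in the Zbtb46 window and none in the other windows of the factors, and was present in 20.2% of all windows. TGANTCA had 2 matches in the printed Zeb2 window, 1 in that of Zbtb46, none in the other windows of the factors, and was present in 7.81% of all windows. GAGGAA, a core that SPI-B and PU.1 can bind, had 1 match in the Batf3 window and in each Zeb2 window and none in the others (28.3% of all windows), and TTANNTAA, which NFIL3 can bind, had none in any of them (6% of all windows). These are matches of letters in 1 window per start, not measured binding.

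Zbtb46, the zinc finger factor of the conventional DC lineage, had its highest means in the 3 DC classes. It stood at 44.5, 74.1 and 51.4 CPM in the cDC1 of the control, asthma and tolerance pools, at 43.3, 50.6 and 39.4 CPM in cDC2 and at 101, 80.8 and 69.0 CPM in mature DCs. Ranges of neighbouring DC classes overlapped. Alveolar macrophages held 0.597, 0.590 and 1.80 CPM (18 UMIs in 4169 cells) and interstitial macrophages 4.54, 1.25 and 0.625 CPM (1, 2 and 2 UMIs). B cells held 0 of 1296538 UMIs, which allows a level of up to 2.31 CPM, so that the pooled levels were at least 25.9-fold higher in cDC1, 19.99-fold in cDC2 and 34.2-fold in mature DCs. Nonclassical monocytes stood at 9.75 ± 5.75 CPM, and endothelial cells at 25.3 ± 33.5 CPM, with 16 UMIs in all and a range that overlapped that of cDC2. The gene lies on chromosome 2 (181387762 to 181459426, minus strand), where Gm22708 overlaps it on the same strand.

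Batf3 and Nfil3 encode basic leucine zipper factors of cDC1 formation, and neither was highest in cDC1. Batf3 stood at 131, 226 and 212 CPM in the cDC1 of the control, asthma and tolerance pools and at 130, 224 and 187 CPM in cDC2. Mature DCs were higher in every pool (178, 368 and 297 CPM), and the ranges of mature DCs, cDC1, cDC2, interstitial macrophages (161 ± 71.7 CPM) and alveolar macrophages (102 ± 69.0 CPM) overlapped from each class to the next. B cells held 9.11 ± 8.77 CPM. Nfil3 was highest in nonclassical monocytes (223 ± 74.4 CPM) and alveolar macrophages (176 ± 14.0 CPM), and stood at 46.5 to 189 CPM over the pools of mature DCs, 26.4 to 118 CPM in cDC2 and 23.4 to 57.6 CPM in cDC1. Batf3 lies on chromosome 1 (191097847 to 191108945, plus strand) and Nfil3 on chromosome 13 (52967209 to 52981073, minus strand), both free of overlapping genes.

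Tcf4, Bcl11a and Spib, factors of plasmacytoid DCs and B cells, were each higher in B cells than in cDC1, and for Tcf4 and Bcl11a the ranges of cDC2 and B cells overlapped. Tcf4 stood at 126, 254 and 295 CPM in the cDC2 of the 3 pools, 203, 232 and 262 CPM in B cells and 79.6, 63.1 and 60.3 CPM in cDC1, so the cDC1 lay below every cDC2 pool. Endothelial cells were highest (812 ± 166 CPM). Bcl11a, a zinc finger repressor, stood at 96.0, 221 and 171 CPM in cDC2, at 213, 239 and 257 CPM in B cells and at 44.5, 45.3 and 35.7 CPM in cDC1. It was nearly missing in mature DCs (0, 10.8 and 10.5 CPM, 17 UMIs in 302 cells), alveolar macrophages (0.596 ± 0.173 CPM) and interstitial macrophages (2.71 ± 2.53 CPM). Spib, an ETS factor, stood at 124, 126 and 124 CPM in B cells, 31.0, 47.6 and 35.6 CPM in mature DCs and 9.41, 14.4 and 8.45 CPM in cDC2. None of the 1603849 UMIs of cDC1 came from Spib, which allows up to 1.87 CPM, and the pooled level was at least 66.8-fold higher in B cells and at least 23.0-fold higher in mature DCs. Bcl11a lies on chromosome 11 (24078056 to 24174123, plus strand), Spib on chromosome 7 (44525993 to 44532071, minus strand) and Tcf4 on chromosome 18 (69343356 to 69689079, plus strand). Gm24845 overlaps Tcf4 on the same strand, and 2 annotated genes overlap Bcl11a on the opposite one.

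Klf4, a Krüppel-like factor of monocytes and endothelium, had its lowest mean in mature DCs, with a range that overlapped that of T cells (67.8 ± 24.8 CPM). It stood at 54.3, 44.0 and 66.9 CPM there in the control, asthma and tolerance pools, against 278, 156 and 116 CPM in cDC1 and 286, 208 and 232 CPM in cDC2. Endothelial cells (1071 ± 391 CPM) and nonclassical monocytes (689 ± 64.6 CPM) were highest, followed by alveolar (472 ± 79.5 CPM) and interstitial macrophages (342 ± 81.2 CPM), whose ranges overlapped. A list of 10 genes known to rise during tissue digestion (Fos, Egr1, Hspa1a and others, all 10 detected) summed to 12977, 7920 and 6579 CPM in cDC1, 10350, 5768 and 6091 CPM in cDC2 and 4002, 3520 and 3614 CPM in mature DCs. Among these 3 classes the list was thus lowest in mature DCs, as Klf4 was, and highest in the control pool of each of these classes. Its part in the Klf4 level was not tested. Klf4 lies on chromosome 4 (55527143 to 55532466, minus strand).

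**Figure D1:**
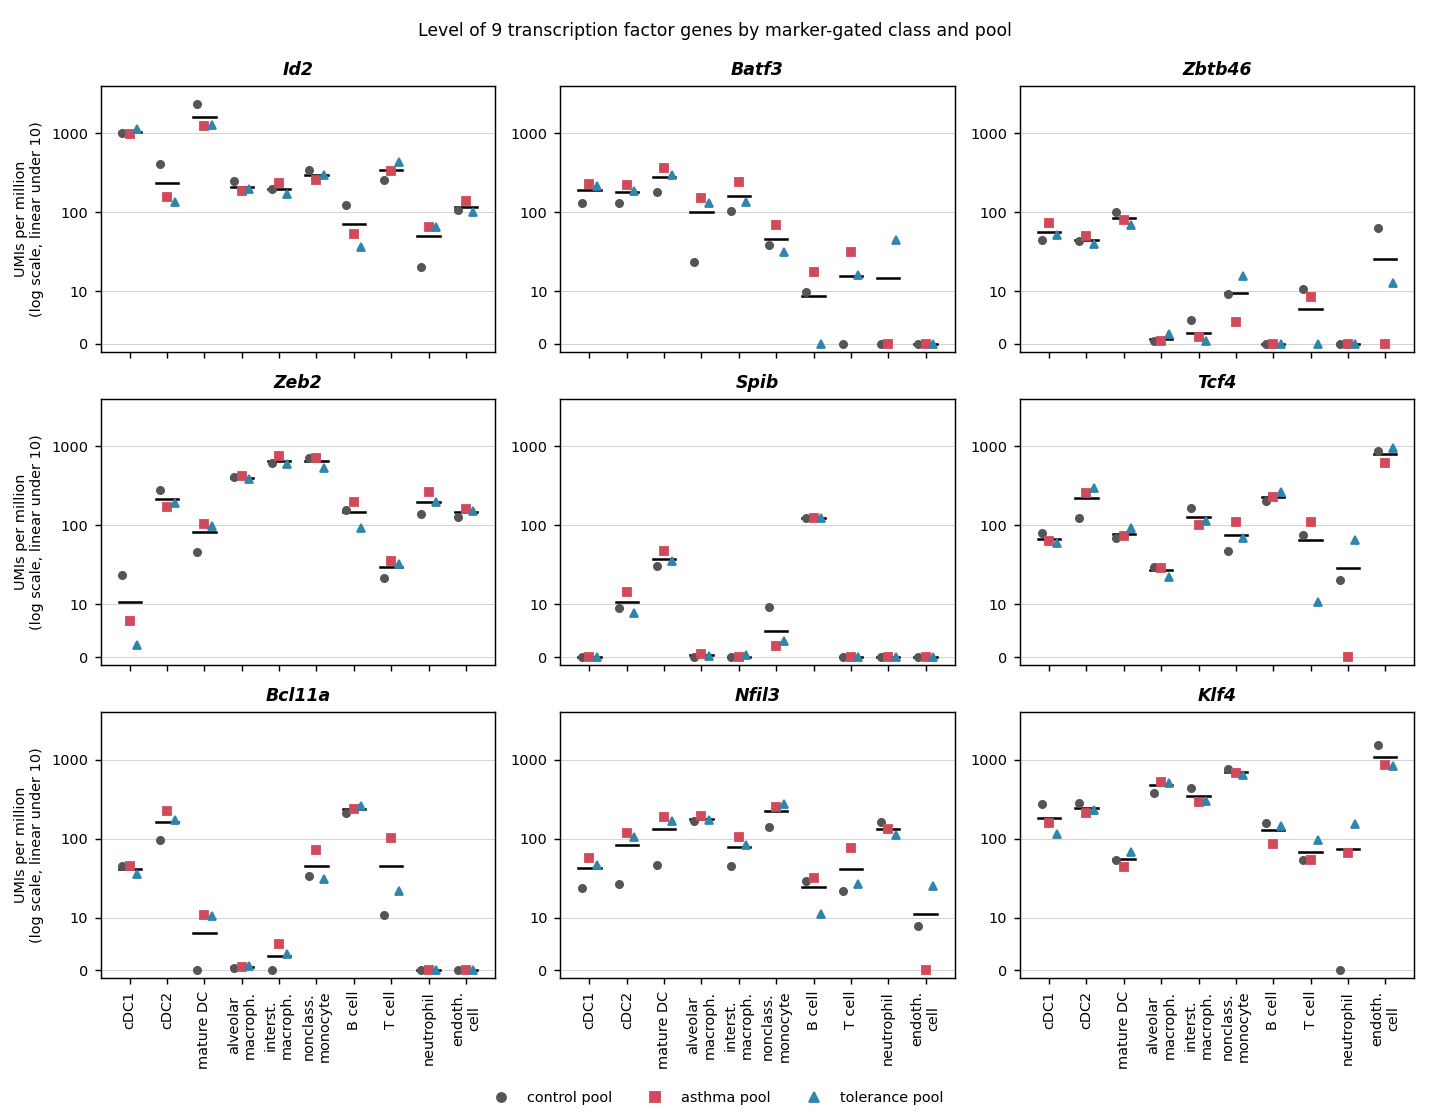
Level (CPM) of each factor (vertical axis, log scale that is linear under 10) in 10 marker-gated classes (horizontal axis). Points are the 3 pools and black lines their mean; Id2 is at 976 CPM or more in every pool of cDC1 and mature DCs, Zeb2 at 23.4 CPM or less in every pool of cDC1, and Zbtb46 near 0 in macrophages and B cells.

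To test these differences, UMIs were summed per pool and class and compared with edgeR's quasi-likelihood test with the pool as a block, with Benjamini-Hochberg adjustment over all genes tested. Between cDC1 and cDC2, 5 of the 8 factors tested passed at an adjusted p under 0.05, where 20% of all 6134 genes did, 10.8% higher and 9.19% lower in cDC1. Id2 was higher in cDC1 by 2.44 on the log2 scale (SE 0.235, adjusted p = 1.3e-06). Zeb2 was lower by a log2 difference of -4.30 (SE 0.277, adjusted p = 1.7e-08), Bcl11a of -1.91 (SE 0.209, adjusted p = 5.5e-06) and Tcf4 of -1.66 (SE 0.219, adjusted p = 3.5e-05). All 4 moved the same way in 3 of 3 pools with ranges that did not overlap, and these calls held in each alternative run. Nfil3 was also lower in cDC1 (-0.87, adjusted p = 0.0052), but its pools overlapped. That call was lost without the asthma pool (adjusted p = 0.20), without the tolerance pool (0.085), without lane 2 (0.14), with DESeq2 (0.34) and without the block (0.26). Clusters in place of gates lost the Nfil3 call too (0.15). Batf3 did not pass (0.16, SE 0.135, adjusted p = 0.50), nor did Zbtb46 (0.48, adjusted p = 0.12) and Klf4 (-0.38, adjusted p = 0.11), although both passed without the control pool (adjusted p = 0.038 for Zbtb46 and 0.0028 for Klf4). Spib had too few UMIs to be tested here.

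Mature DCs differed from both conventional lineages in most of the factors. Against cDC2 all 9 passed (45.7% of all genes did, 23% higher and 22.8% lower), with Id2 (3.12), Spib (2.04), Zbtb46 (1.02), Nfil3 (0.92) and Batf3 (0.87) higher on the log2 scale and Bcl11a (-4.07), Klf4 (-1.87), Tcf4 (-1.40) and Zeb2 (-0.85) lower, each in 3 of 3 pools. The largest adjusted p was 0.0061, for Zeb2. Batf3 and Nfil3 were lost without the asthma pool (adjusted p = 0.077 and 0.069), Nfil3 also without the block (0.11), and Zbtb46 without lane 2 (0.10). Against cDC1, 7 of 9 passed (42.1% of all genes, 21.5% higher and 20.6% lower). Zeb2 was higher in mature DCs by 3.34 (SE 0.473, adjusted p = 0.00011) and Nfil3 by 1.80 (adjusted p = 5.4e-05), while Bcl11a (-1.98, adjusted p = 0.0020) and Klf4 (-1.44, adjusted p = 0.00090) were lower. Spib passed as well, its size being the bound given above. Id2 (0.68, adjusted p = 0.016) and Batf3 (0.70, adjusted p = 0.0081) were higher, but DESeq2 gave adjusted p = 0.070 and 0.10. Without the asthma pool 3 factors were left, the calls of Id2 (0.17), Batf3 (0.23), Bcl11a (0.083) and Klf4 (0.069) being lost, and Batf3 was lost without the tolerance pool (0.064) and without lane 2 (0.33) as well. A fit of all classes at the same time also lost Batf3 (0.13). Either lane alone left 4 factors past the threshold. Spib and Bcl11a, and without lane 1 also Zeb2, no longer reached the count filter, while without lane 2 the Batf3 call was lost as given above. Tcf4 (0.41, adjusted p = 0.20) and Zbtb46 (0.55, adjusted p = 0.099) did not pass.

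Against macrophages and monocytes, cDC2 were marked by Bcl11a, Zbtb46, Tcf4 and, in macrophages, Spib. In the comparison with alveolar macrophages 8 of 9 factors passed, 5 higher and 3 lower in cDC2 (48.5% of all genes, 24% higher and 24.5% lower), led by Bcl11a (log2 difference 8.19, SE 0.213), Zbtb46 (5.85), Spib (5.22) and Tcf4 (3.16) on the side of cDC2, with Batf3 at 1.21. Nfil3 (-0.96), Klf4 (-0.82) and Zeb2 (-0.79) were lower in cDC2. Without the asthma pool 4 of these 8 calls were left, Batf3 (adjusted p = 0.058), Nfil3 (0.057), Zeb2 (0.15) and Klf4 (0.18) being lost, and without the tolerance pool Zeb2 (0.052) and Klf4 (0.074) were lost. Without the block Batf3 (0.22) and Nfil3 (0.098) were lost. Id2 did not pass (0.13, adjusted p = 0.72), and without the control pool it was lower in cDC2 (-0.31, adjusted p = 0.0077). The comparison with interstitial macrophages gave 6 of 9, 4 higher and 2 lower (34.6% of all genes, 16.1% and 18.5%), with Bcl11a (5.65), Zbtb46 (5.31), Spib (5.26) and Tcf4 (1.07, in 2 of 3 pools) higher and Zeb2 (-1.65) and Klf4 (-0.44) lower in cDC2. The Klf4 call was lost without the asthma pool (adjusted p = 0.26), the tolerance pool (0.20), lane 1 (0.17), the block (0.21) or with DESeq2 (0.11). A fit of all classes at the same time lost the Klf4 call too (0.13). Batf3 (0.21), Nfil3 (0.19) and Id2 (-0.07) did not pass, and Id2 passed as lower in cDC2 without the control pool (-0.47, adjusted p = 0.0023). Against nonclassical monocytes 7 of 8 passed, 4 higher and 3 lower (40.3% of all genes, 19.2% and 21.1%): Zbtb46 (2.40), Batf3 (2.02), Bcl11a (1.91) and Tcf4 (1.61) were higher in cDC2, and Zeb2 (-1.57), Klf4 (-1.45) and Nfil3 (-1.38) lower, in 3 of 3 pools each. Id2 did not pass there (-0.47, adjusted p = 0.13), but did without the control pool (-0.88, adjusted p = 6.7e-08).

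Tcf4 and Bcl11a were lower in cDC1 than in B cells, and in cDC2 they were closer to B cells. Between cDC1 and B cells 8 of 9 factors passed, 4 in each direction (50.3% of all genes, 25.2% higher and 25% lower), Batf3 (4.22), Id2 (4.0) and Zbtb46 being higher in cDC1 and Spib, Zeb2 (-3.90), Bcl11a (-2.46) and Tcf4 (-1.77) lower. Nfil3 was at the threshold (0.87, in 2 of 3 pools, adjusted p = 0.049) and was lost without the asthma pool (0.20), the tolerance pool (0.23), the block (0.084) or with DESeq2 (0.35). The Nfil3 call was lost as well with at least 1200 genes per cell (0.55), with doublets kept (0.088) and with all classes in 1 fit (0.10). Klf4 (0.53, adjusted p = 0.065) passed without the tolerance pool (0.93, adjusted p = 0.00029). Between cDC2 and B cells 7 of 9 passed, 5 higher and 2 lower (50.8% of all genes, 25.4% in each direction). Tcf4 did not (-0.11, SE 0.177, adjusted p = 0.63), and Bcl11a was lower in cDC2 by only a log2 difference of -0.58 (adjusted p = 0.017), a call that was lost without the tolerance pool (0.099), lane 2 (0.073), the block (0.080) or with DESeq2 (0.13). The Bcl11a call was lost as well with at least 1200 genes per cell (-0.29, adjusted p = 0.38) and without the count filter (0.067). Batf3 (4.11), Nfil3 (1.78), Id2 (1.69), Klf4 (0.91) and Zbtb46 were higher in cDC2 and Spib (-3.48) lower. Nfil3 was at the threshold without the asthma pool (adjusted p = 0.050) and was lost with at least 1200 genes per cell (0.073). Zeb2 (0.43, adjusted p = 0.13) passed without the asthma pool (0.93, adjusted p = 0.016).

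**Figure D2:**
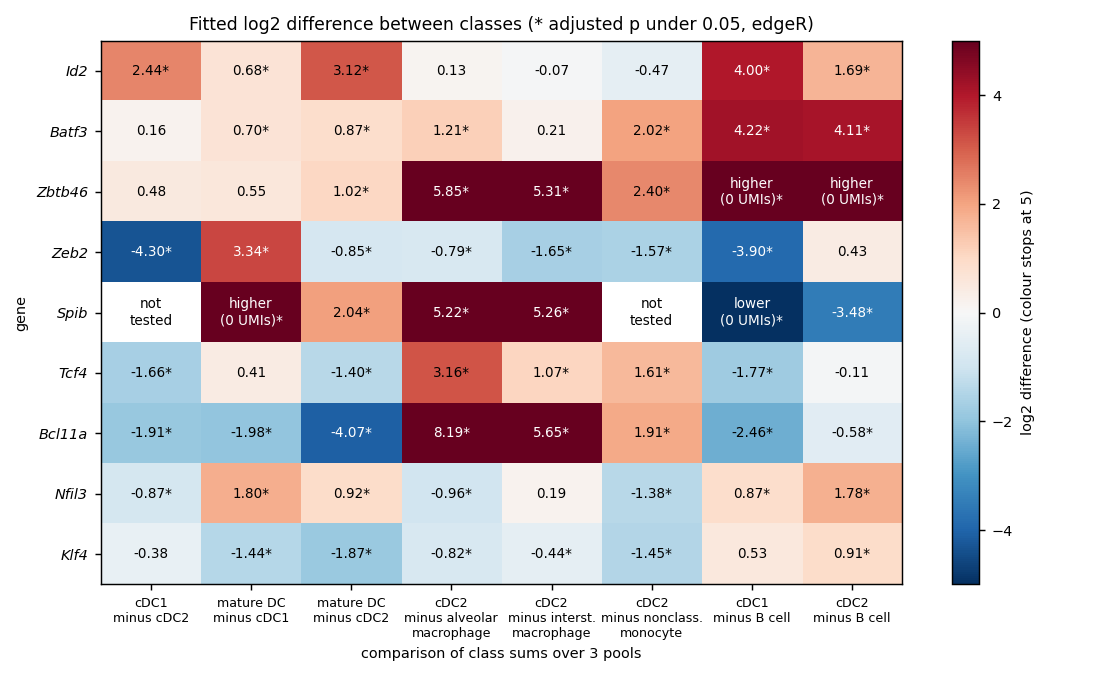
Fitted log2 difference of each factor (rows) between 2 classes (columns), over 3 pools, with an asterisk for an adjusted p under 0.05 in edgeR and words in place of a number where 1 class held 0 UMIs or the gene was not tested (colours stop at 5). Blue Zeb2, Tcf4 and Bcl11a against red Id2 mark cDC1 minus cDC2, and Bcl11a, Zbtb46 and Spib are the deepest red in cDC2 against both macrophages. Levels of Bcl11a, Zbtb46 and Spib in these macrophages are near 0.

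Within the cDC2, 4 states were gated by other genes: 151 cells with at least 2 of Klrd1, Ifitm6 and Cd7, 127 with Cd209d and Cd209e, 162 with Trf and Clec4b1, and 40 with at least 3 of 6 interferon-induced genes. A cell could be in more than 1 state. In the Klrd1 state Id2 stood at 123, 84.7 and 66.2 CPM in control, asthma and tolerance, and in the Trf state at 453, 303 and 191 CPM, higher in each pool. The tolerance value of the Klrd1 state joins 1 UMI in lane 1 (5.53 CPM) and 26 UMIs in lane 2 (115 CPM), whose intervals did not meet. Bcl11a ran the other way, with 134, 318 and 240 CPM in the Klrd1 state and 89.5, 130 and 129 CPM in the Trf state. The Cd209d state, which had 1 control cell and so rests on 2 pools, held Tcf4 at 471 and 605 CPM in asthma and tolerance together with Bcl11a at 368 and 317 CPM.

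Against the other cDC2, 2 of 8 factors passed in the Klrd1 state (2.39% of all genes, 0.965% higher and 1.43% lower), Id2 lower (-1.34, SE 0.186, adjusted p = 0.00016) and Bcl11a higher (0.73, SE 0.153, adjusted p = 0.010). Without the block neither passed (adjusted p = 0.41 and 0.70), nor without lane 1 (0.11 and 0.27). Bcl11a was lost without the asthma pool (0.41), without the tolerance pool (0.31), with DESeq2 (0.32) and with stricter gates (0.32). Without the control pool, which held 13 of the 151 cells, 4 factors passed. In the Cd209d state 3 of 9 factors passed (3.65% of all genes, 1.77% higher and 1.88% lower), all 3 higher: Tcf4 (1.51, SE 0.118, adjusted p = 1.1e-06), Bcl11a (1.21, SE 0.131, adjusted p = 3.5e-05) and Nfil3 (0.71, SE 0.181, adjusted p = 0.039), on 1 residual degree of freedom. Of the 10 digestion genes 0 were higher and 6 lower in this state, with a median log2 difference of -0.72 against -0.01 over all genes, and their part in these calls was not tested. With lane 1 alone Tcf4 was the one call left (adjusted p = 0.14 for Bcl11a and 0.18 for Nfil3), and Nfil3 was also lost without lane 1 (0.44), without the block (0.081) and with DESeq2 (1.00). The Nfil3 call was lost as well with doublets kept (0.084) and with at least 1200 genes per cell (0.065). Stricter gates (0.24) and clusters in place of gates (0.092) lost it too. In the Trf state 1 of 8 passed (0.85% of all genes, 0.587% higher and 0.263% lower), Id2 (0.90, SE 0.183, adjusted p = 0.045). That call was lost without the asthma pool (0.70), the tolerance pool (0.31), either lane (0.068 and 0.21), the block (0.69) or with DESeq2 (0.35). Clusters in place of gates lost it too (0.15), and without the control pool 4 factors passed. In the interferon state, again on 2 pools, 0 of 9 passed in edgeR (3.52% of all genes, 3.14% higher and 0.388% lower), 0 in DESeq2 and 0 at an unadjusted p under 0.05. Cycling cDC1, at 1042 ± 110 CPM of Id2 against 1046 ± 87.2 in the others, gave 0 of 7 in edgeR (14% of all genes, 8.38% higher and 5.62% lower), 0 in DESeq2 and 0 at an unadjusted p under 0.05, with all 7 differences between -0.56 and 0.12 on the log2 scale.

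**Figure D3:**
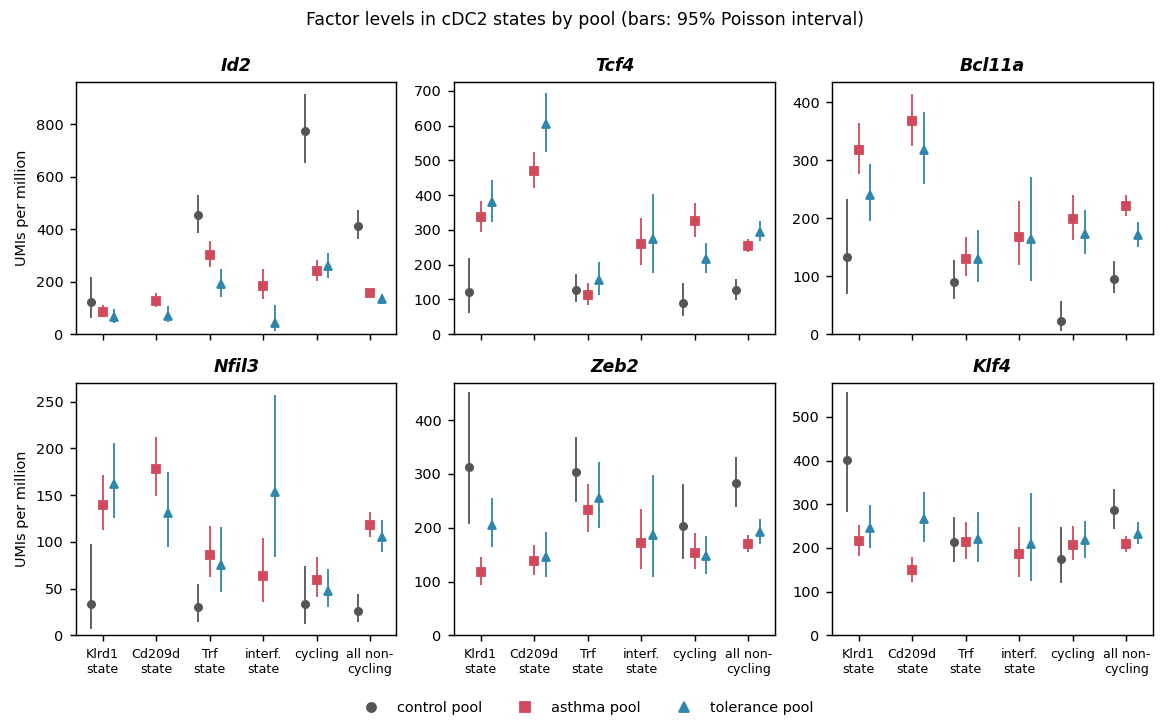
Level (CPM) of 6 factors (vertical axes, linear) in cDC2 states, cycling cDC2 and all non-cycling cDC2 (horizontal axis). Points are pools with at least 10 cells and bars 95% Poisson intervals; in the asthma and tolerance pools the Klrd1 and Cd209d states lie above the Trf state in Tcf4 and Bcl11a and below it in Id2, and wherever the control pool is drawn it has the highest Id2 and the lowest Nfil3 of its state. For Id2 in the Cd209d state, the intervals of the 2 lanes did not meet in either pool. Lanes 1 and 2 stood at 75.7 and 167 CPM in asthma and at 5.79 (1 UMI) and 140 CPM in tolerance.

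Treatments were compared without a test, since each is 1 pool of mice. A difference was named when it reached 2-fold with 1 UMI added to each sum, the Poisson intervals did not meet, both lanes moved the same way and 1 pool had at least 20 UMIs, and 26 of 190 eligible factor values did so over 9 classes. In single comparisons, 0.672% to 7.64% of all eligible genes were named by the same rule. The folds given are ratios of the CPM values, without the added UMI. Of the 26 factor values named, 25 set asthma or tolerance against control and 1 tolerance against asthma. Nfil3 gave 8, all higher than in control, Id2 gave 5, all lower, and Batf3 gave 5, all higher. Zbtb46 and Spib gave 0 of 13 and 0 of 7. Both sets of comparisons share the control pool. The Klrd1 and Trf states are parts of the cDC2 class, so these classes share cells and their counts are not separate evidence.

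In cDC2, 3 of 9 factors were named for asthma against control (6.91% of all genes in that comparison) and 3 of 8 for tolerance against control (6.94%). Id2 fell to 0.375 and 0.325 of the control level, from 414 CPM (220 UMIs, interval 361 to 473) to 155 CPM (399 UMIs) in asthma and 134 CPM (191 UMIs) in tolerance. The lanes of the tolerance pool were at 79.6 and 180 CPM, further apart than counting error, and those of the control pool at 519 and 348 CPM, so all 4 lanes of the treated pools lay below both control lanes. Nfil3 was 4.46-fold and 3.98-fold higher (118 and 105 CPM against 26.4 CPM, from 14 control UMIs). Bcl11a was 2.30-fold higher in asthma and Tcf4 2.34-fold higher in tolerance, while Tcf4 in asthma (254 against 126 CPM) and Bcl11a in tolerance (171 against 96.0 CPM) stayed under the limit. The makeup of the class moved with treatment too: the Trf state held 59 of 99 control cDC2 but 71 of 348 and 32 of 181 in asthma and tolerance, and the summed mature DC markers in cDC2, 6 of 6 detected, stood at 75.3, 441 and 414 CPM in control, asthma and tolerance. The part of either in these differences was not tested. Inside the Trf state Id2 was named for tolerance (0.420 of control) and not for asthma (303 against 453 CPM).

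Nfil3 was also named in the Klrd1 state and in mature DCs for both treatments, and in the Trf state for asthma. In the Klrd1 state 4 of 8 factors were named for asthma (4.19% of all genes) and 2 of 7 for tolerance (3.95%), Nfil3 and Tcf4 being higher in both and, in asthma, Bcl11a higher and Zeb2 lower, against a control pool of 13 cells. In the Trf state 2 of 8 (4.26% of all genes) and 2 of 7 (6.3%) were named: Batf3 was 2.33-fold and 2.57-fold higher, Nfil3 2.89-fold higher in asthma and Id2 lower in tolerance. In mature DCs 1 of 8 (5.41% of all genes) and 1 of 7 (7.64%) were named, both Nfil3, at 46.5 CPM in control (6 UMIs), 189 CPM in asthma (210 UMIs) and 165 CPM in tolerance (79 UMIs). Id2 in mature DCs was at 2350 CPM in control and 1242 and 1265 CPM in the treated pools, under the 2-fold limit. In cDC1 0 of 7 (4.11% of all genes) and 1 of 6 (6.34%) were named, the one being Klf4 in tolerance (116 against 278 CPM), beside the digestion list at 6579 against 12977 CPM.

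Among macrophages, Batf3 moved most. In alveolar macrophages it was named for asthma, as 1 of 6 factors (5.48% of all genes), and for tolerance, as 1 of 6 (7.13%), with 23.4 CPM in control (275 UMIs, interval 20.8 to 26.4), 153 CPM in asthma (1037 UMIs) and 129 CPM in tolerance (502 UMIs), or 6.52-fold and 5.52-fold. The lanes were close, at 21.3 and 25.3 CPM in control, 156 and 150 CPM in asthma and 142 and 119 CPM in tolerance. In these same cells the summed alveolar macrophage markers, 9 of 9 detected, stood at 18442, 50045 and 59330 CPM and the summed cDC1 markers, 7 of 7 detected, at 528, 791 and 961 CPM, and their part in the Batf3 level was not tested. Zbtb46, the DC factor, was at 0.597, 0.590 and 1.80 CPM there. In interstitial macrophages Batf3 (2.31-fold) and Nfil3 (2.33-fold) were named for asthma, 2 of 6 factors (5.36% of all genes), and 0 of 6 for tolerance (4.27%). The control pool of that class held 46 cells. Nonclassical monocytes gave 0 of 7 (1.22% of all genes) and 0 of 5 (0.989%).

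In B cells Id2 was named in both, 1 of 7 factors for asthma (0.951% of all genes) and 1 of 6 for tolerance (1.92%), with 124 CPM in control (38 UMIs), 52.5 CPM in asthma (33 UMIs) and 35.9 CPM in tolerance (13 UMIs). The summed cDC1 markers in B cells, 6 of 7 detected, stood at 105, 41.4 and 33.1 CPM in the same pools and the cDC2 markers at 193, 87.5 and 44.1 CPM, so they were highest in the control pool as Id2 was, and their part in it was not tested. Tolerance against asthma gave Zeb2 in B cells (93.8 against 196 CPM), 1 of 7 factors (1.07% of all genes), and no factor in the other 8 classes, where the share of all genes named was 1.36% in cDC1, 0.706% in cDC2, 1.34% and 1.82% in the Klrd1 and Trf states, 1.25% in mature DCs, 0.869% and 1.16% in alveolar and interstitial macrophages and 0.672% in nonclassical monocytes.

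**Figure D4:**
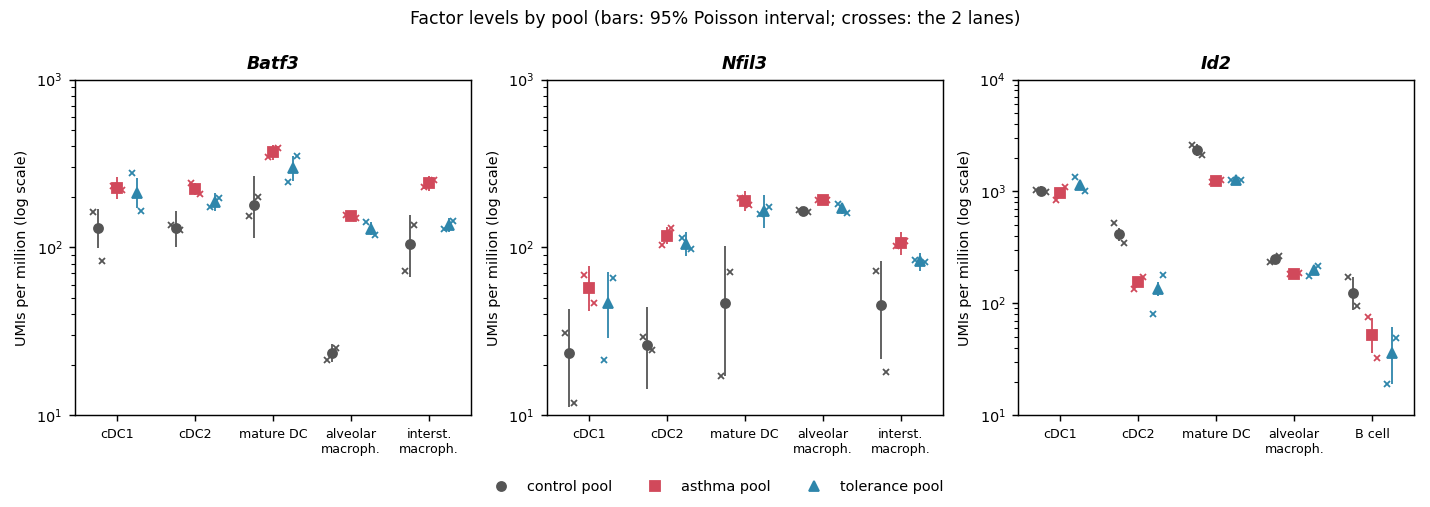
Level (CPM, log axes with a wider range for Id2) of Batf3, Nfil3 and Id2 in the control, asthma and tolerance pools of 5 classes each (horizontal axis), with 95% Poisson intervals as bars and the 2 lanes as crosses. Nfil3 lies lowest in the control pool of cDC2 and mature DCs, Id2 highest in the control pool of cDC2, and Batf3 in alveolar macrophages at 23.4 CPM in control against 153 and 129 CPM.

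To compare cells at equal depth, each cell was thinned to 1500 UMIs and shallower cells were left out, 1 of 221 cDC1, 2 of 628 cDC2, 5 of 302 mature DCs and 139 of 546 B cells. Id2 then had a UMI in 68.2% of cDC1 (exact binomial interval 61.6 to 74.3), 69.7% of mature DCs (64.1 to 74.9), 20.1% of cDC2 and 7.62% of B cells, against 90.5%, 85.4%, 38.2% and 9.89% before thinning. Zeb2 was found in 1.36% of cDC1 (0.282 to 3.93), 22.8% of cDC2 and 59.6% of interstitial macrophages, and unthinned in 4.07%, 58.0% and 91.1%. Bcl11a was found in 4.55% of cDC1, 19.97% of cDC2 and 1.35% of mature DCs (unthinned 23.5%, 54.8% and 4.30%). Zbtb46 was found in 9.09% of cDC1, 5.91% of cDC2 and 11.1% of mature DCs (unthinned 32.1%, 26.6% and 32.8%), and in 0 of 407 B cells and 0.145% of alveolar macrophages, classes that should lack it. Spib had no UMI in cDC1, and 5.39% of mature DCs held one (unthinned 16.2%). Intervals over cells cover counting error only, since cells of a pool are not replicates.

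**Figure D5:**
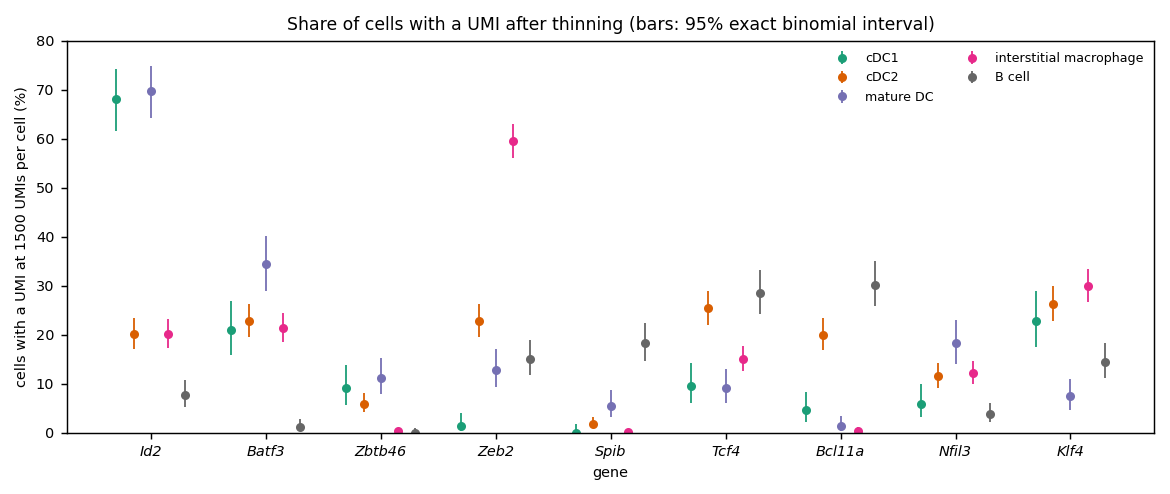
Share of cells with at least 1 UMI (percent, vertical axis) for each factor (horizontal axis) in 5 classes, shown by colour, after thinning each cell to 1500 UMIs, with exact 95% binomial intervals. Id2 is found in over 60% of cDC1 and mature DCs, Zeb2 in 1.36% of cDC1, and Zbtb46 in 0 of 407 B cells.

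A list of 43 further transcription factors of DCs, monocytes and B cells shows the setting of these differences. Between cDC1 and cDC2, 9 of 29 tested were higher in cDC1 (10.8% of all genes) and 4 lower (9.19%), with a median log2 difference of 0.11 against -0.01 over all genes. Irf8, the partner of BATF3 in cDC1, led them (6.85, adjusted p = 1.0e-13), followed by Mycl (2.51), a Myc factor of DC proliferation, while Irf4, the cDC2 factor, was lower in cDC1 (-3.37, adjusted p = 3.8e-06), as was Batf (-1.59). In mature DCs against cDC2, 10 of 30 were higher (23% of all genes) and 11 lower (22.8%), among them Irf8 (5.28), the NF-kappaB subunit Relb (3.66) and Klf6 (2.25) on one side and Bach2 (-2.18) and Cebpa (-1.59) on the other. Against cDC1, 6 of 26 were higher in mature DCs (21.5% of all genes), Relb (4.0) and Irf4 (3.5) most, and 9 lower (20.6%), Mycl (-2.85) most. In the Klrd1 state 2 of 28 were higher (0.965% of all genes), Irf7 (1.19) and Nr4a1 (0.72), and 2 lower (1.43%), among them Cebpb (-0.91). The Cd209d state gave 0 higher (1.77% of all genes) and 6 lower (1.88%) of 31, Cebpb most (-1.13).

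For each factor the gene with the most similar pattern over 38 sums (the pools of 13 classes, cycling cDC1 and cDC2 among them, with at least 10 cells) was sought among 6266 genes that are not gate markers, by Pearson's r of log2 levels. Sums of 1 pool share their libraries, so r is a description. Zeb2 was most like Ctsa (0.877), a lysosomal protease, and next Clec4a3 (0.827) and Cybb (0.821), the phagocyte oxidase subunit. Spib was most like Cxcr5 (0.863), the follicle homing receptor of B cells. Zbtb46 was most like Avpi1 (0.844), and next Flt3 (0.830), the receptor for the DC growth factor FLT3 ligand. Id2 was most like Ncoa7 (0.833), Batf3 like Rnh1 (0.855), Tcf4 like Carmil1 (0.817), Bcl11a like Kmo (0.806), Nfil3 like Ptpn1 (0.831) and Klf4 like Leprot (0.849).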

How the data were processed

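Lung cells of 3 pools, each of 8 mice, were run on 2 lanes. The authors made the deposited counts, whole UMIs per gene and cell, and the labels' processing notes name Cell Ranger 3.1.0, STAR, Seurat 3.1.5 and the build mm10. Of 10901 barcodes, 10088 met 3 limits: at most 20% of UMIs from mitochondrial genes, at most 20000 UMIs and at least 500 genes. Scrublet's own limit marked 0.0585% and 0.504% of the lanes, so the highest 2% of doublet scores per lane were removed (232 cells), leaving 9856.

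A cell was given the class whose detected markers, weighted by rarity, scored at least 0.4 and 0.15 above the next. The sums of each class in each pool entered edgeR 4.0.16 (quasi-likelihood, TMM, filterByExpr, Benjamini-Hochberg adjustment). Both classes of a comparison came from the same mice, so the pool was a block, which leaves 2 residual degrees of freedom with 3 pools and 1 with 2 pools. Each pool had its own treatment. The p-values rest on how a class difference varies between the pools compared, with error estimates that edgeR moderates across genes. The script was tested on simulated counts. DESeq2 1.42.0, other filters and gates and left-out lanes and pools were alternatives. The 9 factors and all lists were chosen with earlier results of these data known. Named genes were the 9 factors, the listed factors with the largest called differences and, for each factor, the most similar genes. Levels are CPM, and 0 is given as a limit of 3 counts.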

Additional observations from a re-analysis of the deposited data

Results flagged for a closer look

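Klf4 differed in direction between 2 classes when tolerance was set against control. Its log2 difference was -1.25 in cDC1 and 0.41 in alveolar macrophages, and each lane of the tolerance pool lay on the same side of each control lane within its class. With 1 pool per treatment, the difference between the classes was not tested.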

How the results depend on the processing

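Each result of a single factor between classes was counted once per alternative run. Runs in which the factor no longer reached the count filter were not counted. Of these pairs of result and alternative, 781 with a main result past the threshold stayed past it and 72 did not, none of them with the opposite sign. Of the pairs with a main result not past it, 543 stayed, 24 passed and 1 turned. The one that turned was Id2 in cDC2 against alveolar macrophages, at -0.31 without the control pool, -0.31 to 0.40 being the range over left-out lanes and pools. The number of factors that passed moved as well. In the Klrd1 state it was 0 without the replicate block, 1 with DESeq2, 1 with stricter gates and 0 to 4 when a lane or pool was left out. In the Trf state it was 0 without the replicate block, 0 with DESeq2, 0 with clusters in place of gates, 2 without the count filter, 2 with doublets kept, 2 with at least 1200 genes per cell and 0 to 4 when a lane or pool was left out. In the Cd209d state, which rests on 2 pools, only lanes were left out, and this gave 1 to 2 factors. Leaving out a lane or pool gave 3 to 7 in mature DCs against cDC1 and 4 to 9 in cDC2 against alveolar macrophages. The cause was not tested.

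Over all genes, the main count and the lowest and highest count under an alternative were 1225, 505 and 1778 for cDC1 against cDC2. They were 2175, 917 and 2947 for mature DCs against cDC1, and 3128, 1605 and 3935 against cDC2. For cDC2 they were 4795, 2507 and 5934 against alveolar macrophages, 2932, 1387 and 3783 against interstitial macrophages, 2316, 1299 and 3154 against nonclassical monocytes and 3166, 1738 and 4108 against B cells. For cDC1 against B cells they were 2695, 1473 and 3503, and for cycling cDC1 648, 214 and 762. The states gave 139, 16 and 304 (Klrd1), 262, 17 and 407 (Cd209d), 42, 0 and 356 (Trf) and 236, 98 and 237 (interferon). A fit of all classes at the same time was not run for the states, which share cells with the cDC2 class, nor for the cycling cells. Of the treatment differences, 23 to 29 were named under the alternatives, against 26. Low counts limit Spib, Zbtb46 and Zeb2 in cDC1 and the control pool of the Klrd1 state, which held 13 cells.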
